A study of Mus musculus with 12 samples.

Results

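The narrow H3K4me3 peaks described here numbered 1497, of the 19372 peaks that DMSO-treated Min6 cells gave with an antibody to H3K4me3. They were chosen by measured values of the same data: a merged width under 1000 bp in the DMSO list, an overlap of at least 1 bp with a peak of the JNKi list, and a midpoint within 3 kb of a transcription start site (TSS) of the GENCODE vM21 basic annotation on GRCm38. Width, overlap, distance to the TSS and peak strength are therefore descriptions of the chosen peaks and were not tested. Min6, the 1 line used in all groups, derives from a mouse insulinoma and stands in for β cells, and the labels give no engineered genotype. Cells received DMSO, the solvent control, or the JNK inhibitor SP600125 (JNKi) at 20 µM for 48 hours, and CUT&RUN, which releases DNA under an antibody-tethered nuclease, was performed with IgG, cJun or H3K4me3 antibodies. Each of the 6 groups held 2 biological replicates (12 samples), 550000 cells entered each reaction, and the lists used here each merge both replicates of 1 group. The labels state sequencing to 30000000 paired-end reads per sample, the depth reached cannot be read from the lists, and each list carries the strength and coordinates of both replicates beside the merged peak. The 95% Wilson intervals below cover counting error over peaks or genes only.

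H3K4me3 is laid down around the start of genes by methyltransferase complexes that are drawn to unmethylated CpG islands and to transcribing RNA polymerase II. Wide domains of the mark are known from highly transcribed genes and genes of cell identity, whereas narrow and weak domains are known from promoters with few CpG and from promoters with little transcription. Most CpG in mammalian DNA is methylated and has been lost over time by mutation, so that CpG stays frequent mainly where the germ line leaves it unmethylated.

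The range of sequence under the narrow peaks is shown by the 150 bases upstream of the TSS at the 3 promoters with the fewest and the 3 with the most CpG. These were drawn from the promoters named by class or strength whose TSS lay inside a narrow peak, whose window held no exon and which had no second copy in the genome. The stretch before the housekeeping gene Aldoa, which lay under a peak of 2000 to under 5000 bp, is given for comparison. Sequence is from GRCm38, 5′ to 3′ on the strand of the gene, and capitals mark CpG.
Cdh9, chr15:16728606-16728755, plus strand: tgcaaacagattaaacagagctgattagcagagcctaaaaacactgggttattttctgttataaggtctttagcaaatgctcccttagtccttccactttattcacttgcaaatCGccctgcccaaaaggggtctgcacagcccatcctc
Mrps33, chr6:39806043-39806192, minus strand: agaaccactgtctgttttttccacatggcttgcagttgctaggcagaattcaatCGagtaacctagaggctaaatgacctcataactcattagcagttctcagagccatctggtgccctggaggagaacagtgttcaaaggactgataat
Gpr39, chr1:125676845-125676994, plus strand: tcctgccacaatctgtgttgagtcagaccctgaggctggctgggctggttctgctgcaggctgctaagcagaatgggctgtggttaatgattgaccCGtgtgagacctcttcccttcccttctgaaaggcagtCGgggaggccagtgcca
Wnt9b, chr11:103749822-103749971, minus strand: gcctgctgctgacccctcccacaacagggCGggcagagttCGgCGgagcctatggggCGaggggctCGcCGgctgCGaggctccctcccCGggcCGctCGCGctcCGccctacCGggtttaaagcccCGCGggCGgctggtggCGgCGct
Il13ra1, chrX:36111960-36112109, plus strand: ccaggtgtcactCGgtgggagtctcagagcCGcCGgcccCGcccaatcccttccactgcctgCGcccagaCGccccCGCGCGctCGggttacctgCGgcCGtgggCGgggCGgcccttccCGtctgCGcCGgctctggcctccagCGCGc
Cyp46a1, chr12:108334231-108334380, plus strand: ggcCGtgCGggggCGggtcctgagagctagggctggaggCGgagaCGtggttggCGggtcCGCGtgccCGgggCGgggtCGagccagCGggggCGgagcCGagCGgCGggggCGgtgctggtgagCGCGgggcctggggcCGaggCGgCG
Aldoa, chr7:126809109-126809258, minus strand: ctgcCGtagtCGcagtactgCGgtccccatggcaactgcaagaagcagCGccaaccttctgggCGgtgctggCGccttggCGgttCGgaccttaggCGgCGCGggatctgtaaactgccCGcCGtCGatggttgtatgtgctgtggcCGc
The windows of Cdh9, a neuronal cadherin, and of an alternative start of Mrps33, a protein of the mitochondrial ribosome, held 1 CpG each, and that of Gpr39, a zinc-sensing receptor, held 2. Those of Wnt9b, a Wnt ligand, Il13ra1, a subunit of the interleukin-13 receptor, and Cyp46a1, the cholesterol 24-hydroxylase of neurons, held 18, 19 and 22, and that of Aldoa held 15. The peaks at Cdh9 and Mrps33 were weak and had an irreproducible discovery rate of 0.306. Their deposited −log10 p in both DMSO columns was 6.59 and 6.72 (Cdh9) and 6.47 and 3.98 (Mrps33). The Gpr39 peak had 38.7 and 33.4. At Cyp46a1 narrow peaks of 803 and 844 bp lay under 1 JNKi peak of 2104 bp. The peak at Il13ra1 measured 999 bp in DMSO and 1159 bp in JNKi. With these limits, narrow peaks of the DMSO list lay over starts with few and with many CpG.

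The label of the cells was checked against marker genes. Of 30 β cell genes, 22 had a DMSO peak of 5000 bp or more within 3 kb of a TSS and 7 one of 2000 to under 5000 bp. The widest peak reached 23064 bp at Pax6, 12246 bp at Pdx1, 10619 bp at Nkx6-1 and 4939 bp at Ins2. Ins1 had no peak, and so did 21 of 25 acinar, 14 of 15 fibroblast, 13 of 14 endothelial and 26 of 30 immune marker genes. Of 13 genes of other islet cells 7 had none, Sst and Ppy among them, while Gcg had a peak of 1588 bp, Ttr one of 6197 bp and Etv1 one of 12035 bp. Wider peaks also lay at 17 of 26 neuron genes and 8 of 15 duct genes, with peaks of 5000 bp or more at 3 and 0 of them, against 22 of the 30 β cell genes.

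The narrow peaks were weak and short next to the other shared promoter peaks. Their median width was 704 bp (191 to 999), and their median −log10 p, the deposited strength of the weaker replicate, was 13.2 (3.02 to 404). Shared promoter peaks of 1000 to under 2000 bp (3561 peaks), 2000 to under 5000 bp (7905) and 5000 bp or more (532) had medians of 89.2, 253 and 359. An irreproducible discovery rate (IDR), the expected share of peaks that do not replicate, of at most 0.05 was found at 646 of the 1497 narrow peaks, or 43.2% (40.7 to 45.7). Over the whole DMSO list this share was 73%, and over the 3 wider classes it was 91.7%, 93.1% and 70.7%.

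Within the DMSO pair the median −log10 p of the narrow peaks was 17 in the first replicate column and 16.3 in the second, and the median widths were 594 and 620 bp. Across the 1497 peaks, which share both libraries and are not independent, the columns had a Spearman's rho of 0.792 for −log10 p and 0.662 for width. The stronger column exceeded the weaker more than 2-fold at 205 peaks (13.7%), against 5.05%, 6.68% and 19% of the wider classes in order of width. Both replicates placed each narrow peak under 1000 bp, since the merged peak spans both.

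**Figure D1:**
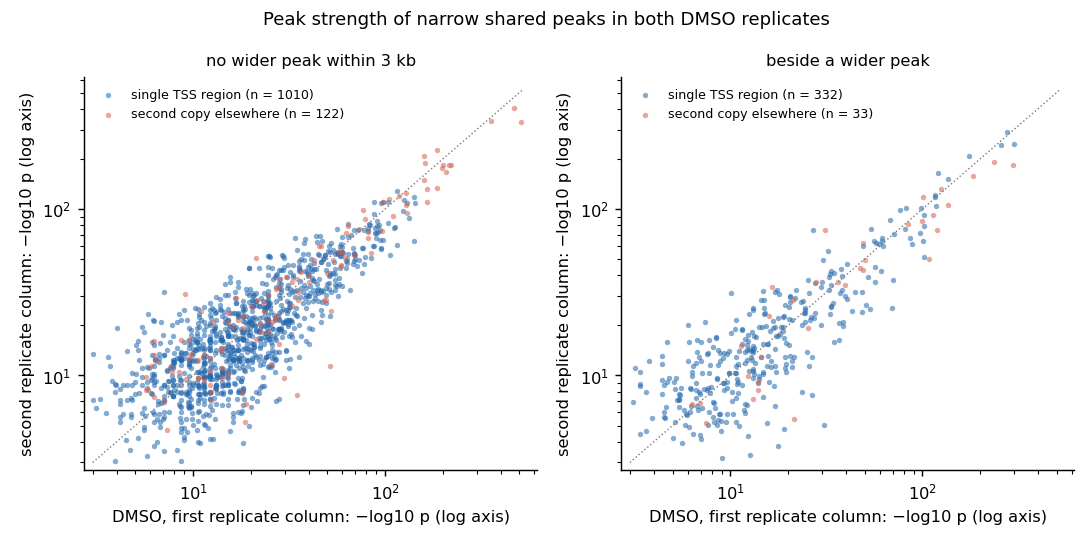
Strength of the 1497 narrow peaks in the DMSO list, −log10 p of the first (x axis) against the second replicate column (y axis), both on log axes, for the 1132 peaks without (left) and the 365 with (right) a wider peak within 3 kb of the TSS. Points follow the dotted line of equality with wide scatter at the weak end, and peaks whose TSS region has a second copy in the genome (red) make up most of the points above 100.

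Values of the peaks nearest to the thresholds are given here as a description. Just inside the width threshold lay a peak of 999 bp at Il13ra1 and one of 998 bp at St6galnac6, a sialyltransferase, and just outside it peaks of 1000 bp at Specc1 and at Sema3g, a semaphorin. In the first and second DMSO columns −log10 p was 37.7 and 49.5 at Il13ra1, 81.5 and 75.9 at St6galnac6, 119 and 106 at Specc1, and 23.6 and 28.2 at Sema3g. Just inside the distance threshold lay peaks at Oxr1 (2986 bp) and Plpp1 (2983 bp), and just outside it a peak at Il33 (3003 bp). The rule's requirement of a JNKi overlap removed 408 of 1905 narrow promoter peaks of the DMSO list, whose median −log10 p was 6.29. Over all DMSO peaks 93.4% were overlapped by a JNKi peak, a share that the choice of the members fixed at their own 100%.

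Narrow promoter peaks fell into 2 kinds by their surroundings. A wider DMSO peak (1000 bp or more) reached within 3 kb of the same TSS at 365 of them (24.4%, 22.3 to 26.6), and at the other 1132 the narrow peak stood without one. The wider neighbour had a median width of 2383 bp and lay at a median distance of 577 bp from the edge of the narrow peak. At 250 of the 365, a wider peak in reach had the same nearest gene. Among wider shared promoter peaks, another such neighbour was found at 8.73%, 4.26% and 2.44% in order of width.

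Peaks standing alone held the TSS more often than peaks beside a wider peak. The nearest TSS lay inside the peak at 650 of 1132 (57.4%, 54.5 to 60.3) of the first kind and at 49 of 365 (13.4%, 10.3 to 17.3) of the second. The split itself contributes to this difference, since a TSS held by the wider neighbour cannot lie inside the narrow peak. The midpoint was within 500 bp of the TSS at 761 and at 86 peaks. Among peaks standing alone 697 midpoints lay downstream and 434 upstream, while beside a wider peak 159 lay downstream and 205 upstream. Over all narrow peaks the TSS was inside 46.7% (44.2 to 49.2), against 88.5%, 98.8% and 100% of the wider classes, a measure to which the width itself contributes. Midpoints downstream of the TSS made up 57.2% (54.7 to 59.7) of narrow peaks and 80.6%, 82.6% and 73.3% of the wider classes. By annotation 31.6% of narrow midpoints were exonic, 38.7% intronic and 29.7% outside genes, and the last share was 11.2%, 6.86% and 9.59% in the wider classes.

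**Figure D2:**
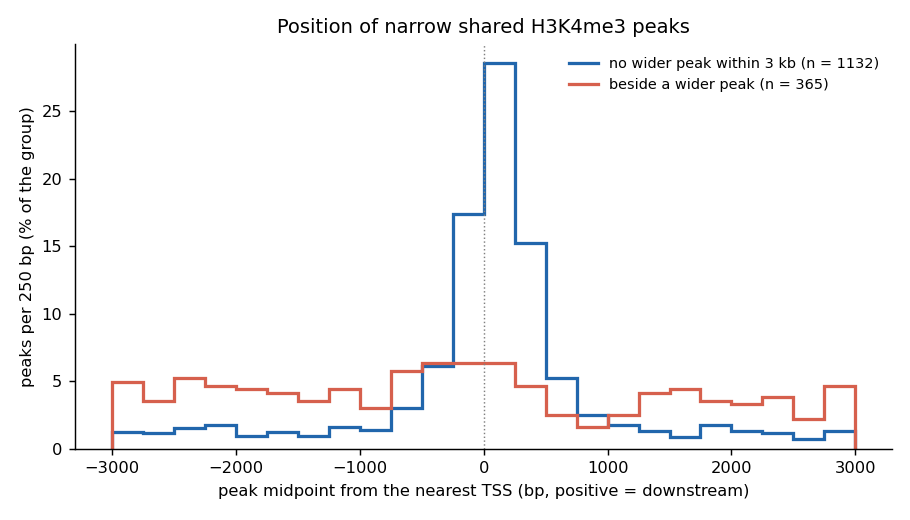
Distance of the midpoint of narrow peaks from the nearest TSS (x axis, bp, positive downstream), as percent of each kind per 250 bp (y axis). Peaks without a wider peak within 3 kb (blue, 1132) gather within 500 bp of the TSS, whereas peaks beside a wider peak (red, 365) spread over the whole 6 kb.

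Among narrow peaks standing alone, those named here as strongest are the 8 highest whose nearest gene is protein-coding with a symbol other than a Gm number or Rik clone, and the same limit holds for the strongest, narrowest and widest-ratio peaks named further on. Peaks at genes left out by this limit, such as Gm3558, ranked among them. All 8 lay at starts with a second copy in the genome. The highest was at Srp54b (chr12:55155458-55155852, intronic, 551 bp downstream of the TSS), which encodes a copy of the SRP54 subunit of the signal recognition particle. Its −log10 p was 472 and 404 in the DMSO columns and 557 and 519 in the JNKi columns. The peak at its neighbour Srp54c (chr12:55230523-55230910) had 513 and 334 in DMSO and 508 and 566 in JNKi. Both peaks were short, 395 and 388 bp, and strong in all 4 columns.

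Tuft1, which encodes an enamel protein, had a peak of 971 bp with −log10 p of 357 and 340 in DMSO and 328 and 249 in JNKi. Setdb1, the gene of a histone H3K9 methyltransferase, had a peak of 939 bp at an annotated start (chr3:95356601-95357539) with 187 and 227 in DMSO and 251 and 249 in JNKi. The interferon-induced GTPases Igtp and Irgm2 had peaks of 910 and 855 bp, with 216 and 183 (Igtp) and 160 and 209 (Irgm2) in DMSO. Tcte3, a gene of dynein light chains, and Zfp931, a zinc-finger gene, completed the 8, with 199 and 176 (Tcte3) and 160 and 150 (Zfp931) in DMSO. At each of these 8 genes the 2 kb around the TSS aligned elsewhere in the genome over at least 50% of its length at 90% identity or more, from 96.6% at Tuft1 to 100% at Irgm2, so the values at any 1 copy are uncertain.

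Such second copies were counted over all members. They were found at 155 of 1497 narrow peaks (10.4%, 8.91 to 12) and at 6.09%, 3.40% and 4.51% of the wider classes. Among the 40 narrow peaks with a −log10 p of 100 or more, 25 had one, and among the other 1457 it was 130. In the quartile of narrow peaks with the highest −log10 p the share was 20.1%, and in the lowest quartile 5.87%. The part of mapping in these peaks was not tested.

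The 5 strongest named peaks beside a wider peak included single-copy genes. At Lysmd1 a peak of 800 bp lay 577 bp from one of 1279 bp, with −log10 p of 258 and 244 in DMSO and 268 and 185 in JNKi. A peak of 821 bp at Usp7, a deubiquitinase, lay 294 bp from one of 2834 bp, with 176 and 207 in DMSO and 248 in both JNKi columns. A peak of 829 bp at Naf1, a factor of H/ACA ribonucleoprotein assembly, lay 210 bp from one of 1486 bp, with 136 and 152 in DMSO and 190 and 234 in JNKi. The other peaks, at Syt11, a synaptotagmin, and at Nudt11, a phosphohydrolase of inositol phosphates, had second copies at 98.0% and 98.9% identity. The gap to the wider neighbour was 2376 bp at Syt11 and 213 bp at Nudt11.

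The 5 narrowest peaks named among those standing alone ranged from 191 to 215 bp. The shortest, at Slc6a21 (chr7:45277321-45277511, outside genes), had −log10 p of 40.7 and 34.5 in DMSO and 40.8 and 43.2 in JNKi. Dll3, a Notch ligand, with 197 bp and a TSS inside, had 7.61 and 11.1 in DMSO and 16.9 and 20.4 in JNKi. Shroom3, an actin-binding regulator of cell shape, with 215 bp, had 7.92 and 12.3 in DMSO and 12.5 and 11.4 in JNKi. Mybpc3, the cardiac myosin-binding protein, had an exonic peak of 215 bp centred 2731 bp upstream of its nearest TSS, with 16.2 and 14.2 in DMSO and 7.68 and 9.95 in JNKi. The TSS region of Zfp955b, the remaining one, had a second copy at 99.7% identity. Dll3 and Shroom3 had weaker-column values below the median of 13.2 of all narrow peaks, and the other 3 had values above it.

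Narrow peaks lay at protein-coding genes less often than wider ones. The nearest TSS belonged to a protein-coding gene at 1001 of 1497 (66.9%, 64.4 to 69.2), and this share was 85.1% (83.9 to 86.2), 91.3% (90.7 to 91.9) and 84.8% (81.5 to 87.6) in the wider classes. Long intergenic non-coding RNA genes were nearest at 151 narrow peaks (10.1%, 8.66 to 11.7), against 4.80%, 1.44% and 2.26%. Pseudogenes were nearest at 103 (6.88%, 5.71 to 8.28), against 1.97%, 0.544% and 0.752%, and at 24 of the 103 the TSS region had a second copy. Antisense genes were nearest at 72 (4.81%, 3.84 to 6.01), against 3.34%, 2.93% and 5.26%, miRNA genes at 35 (2.34%, 1.69 to 3.23), against 0.899%, 0.683% and 1.88%, and small nuclear RNA genes at 28 (1.87%, 1.30 to 2.69), against 0.421%, 0.101% and 0.188%. The intervals of the protein-coding, lincRNA, pseudogene and small nuclear RNA shares did not meet those of any wider class. The antisense interval met those of peaks of 1000 to under 2000 bp and of 5000 bp or more, and the miRNA interval met that of the last.

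Counted by gene, the order depended on the base. A gene was called marked by a narrow peak alone where a narrow shared peak had its midpoint within 3 kb of a TSS of the gene and no DMSO peak of 1000 bp or more reached within 3 kb of any of its TSS. This held for 657 of 21938 protein-coding genes, or 2.99%, and for 147 of 5854 lincRNA genes (2.51%). Of genes with any DMSO peak within 3 kb, those marked in this way made up 4.98% of protein-coding genes, 16.8% of lincRNA genes, 20.9% of processed pseudogenes, 16.8% of small nuclear RNA genes, 7.81% of antisense genes and 7.33% of miRNA genes. Another 202 protein-coding genes had only DMSO peaks under 1000 bp that did not meet this definition. Of the 731 peaks standing alone with a protein-coding nearest gene, 651 lay at genes marked in this way and 80 at genes with a wider peak at another TSS, as at Mrps33.

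CpG content, which the rule did not use, was lower at narrow peaks. The CpG ratio, observed over expected CpG from 250 bases before to 50 after the TSS, had a median of 0.51 at the 1497 nearest TSS (quartiles 0.308 and 0.732). It was 0.667, 0.826 and 0.817 in the wider classes. Peaks standing alone had a median of 0.477 and those beside a wider peak 0.667. Without second copies the median of the narrow peaks was 0.509, with an IDR of at most 0.05 it was 0.527, with protein-coding genes only 0.571, and with the TSS inside the peak 0.553. Each of these subsets stayed below the 0.667 of peaks of 1000 to under 2000 bp.

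Among protein-coding genes, taken at the 5′-most TSS, the median CpG ratio was 0.195 for 8750 genes with no peak, 0.492 for the 657 genes marked by a narrow peak alone, 0.644 for 2965 genes with a widest peak of 1000 to under 2000 bp, 0.801 for 8693 of 2000 to under 5000 bp and 0.821 for 671 of 5000 bp or more. A ratio of at least 0.6, a value commonly used for CpG islands, was reached by 9.59%, 33.5%, 56.7%, 78.6% and 79.4% of them. Genes marked by a narrow peak alone thus stood between unmarked genes and genes with wider peaks.

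**Figure D3:**
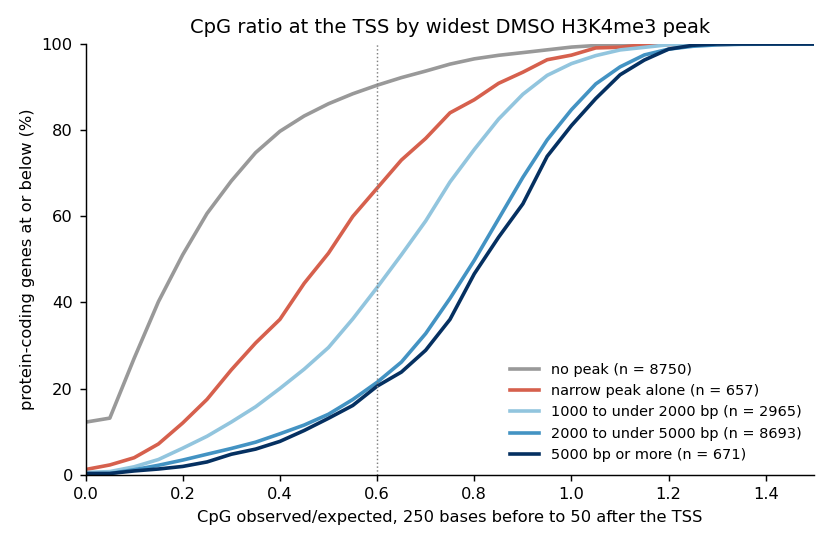
Cumulative share of protein-coding genes (y axis, %) at or below a CpG ratio at the 5′-most TSS (x axis), by the widest DMSO H3K4me3 peak within 3 kb. The curve of the 657 genes marked by a narrow peak alone (red, median 0.492) runs between that of the 8750 genes without a peak (grey, median 0.195) and those of the wider classes (blue), and the dotted line marks a ratio of 0.6.

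Core promoter motifs were counted in the same window on both strands. The TATA box TATAAA was found at 9.55% (8.17 to 11.1) of narrow peaks, at 7.30% (6.49 to 8.20), 4.97% (4.51 to 5.47) and 7.71% (5.73 to 10.3) of the wider classes, and at 12.5% of all protein-coding promoters. The GC box GGGCGG, which itself holds a CpG, was found at 45.8% (43.3 to 48.4) of narrow peaks, against 58.8%, 70.1% and 63.9%, and 44.9% of all protein-coding promoters. The CCAAT box CCAAT was found at 34.3% (32.0 to 36.8) of narrow peaks, at 35.7%, 35.7% and 34.2% of the wider classes, and at 38.8% of all. The AP-1 site, TGAGTCA or TGACTCA, was found at 4.41% (3.48 to 5.57), against 3.73%, 2.72% and 3.20%, and 4.45% of all. These are matches of letters and not bound sites.

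Gene classes were then read against the 2.99% of all protein-coding genes. The 36 classes were listed by name or by symbol, some share genes, and their intervals cover counting error without adjustment. The interval lay above 2.99% for protocadherins, neurons, histone clusters and Zfp genes, and below it for olfactory and vomeronasal receptors. These calls depended on the base. Among genes with any DMSO peak within 3 kb, of which a narrow peak alone marked 4.98%, the interval lay above this share for protocadherins (16 of 37), orphan and adhesion G-protein-coupled receptors (6 of 42), chemokines and interleukins (5 of 30), cytochromes P450 (3 of 16) and the lists of muscle and olfactory receptor genes (1 of 3 each). It lay below for cytosolic and mitochondrial ribosomal proteins and the respiratory chain (0 of 79, 78 and 75), and it held 4.98% for Zfp genes (5.92%, 3.86 to 8.96) and histone clusters (8.20%, 3.55 to 17.8). For neurons (14.3%, 4.98 to 34.6) its lower end was at this share. Only protocadherins lay above on both bases. None of 31 housekeeping genes, 82 cytosolic and 78 mitochondrial ribosomal protein genes, 80 respiratory chain genes and 39 proteasome genes was marked by a narrow peak alone. Of the 31 housekeeping genes 24 had a widest peak of 2000 to under 5000 bp, 4 one of 5000 bp or more and 3 one of 1000 to under 2000 bp. None of 30 β cell genes, 15 genes disallowed in β cells, and 29 AP-1 and immediate early genes was marked by a narrow peak alone either. The intervals of these 8 classes all held 2.99%.

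Most genes of sensory families, and of the lists of cell types other than β cells, neurons and duct, had no peak. Of 26 neuron genes 17 had a peak of 1000 bp or more and 5 had none, and of 15 duct genes 8 and 6. All 39 Hox genes, 1090 of 1093 olfactory receptor genes, 326 of 327 vomeronasal receptor genes and 104 of 110 keratin genes lacked a DMSO peak within 3 kb. A narrow peak alone marked 1 olfactory receptor gene, Olfr1033, whose TSS region has a second copy, and none of the Hox, vomeronasal and keratin genes. It marked none of the 25 acinar, 15 fibroblast, 14 endothelial, 30 immune, 19 liver and 25 germ line genes, and of 20 muscle genes it marked Mybpc3.

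Protocadherins, adhesion proteins that give neurons individual surface identities, had the highest share of the 36 classes. A narrow peak alone marked 16 of 69 genes (23.2%, 14.8 to 34.4), and 15 of the 16 were among the 57 genes of the clustered Pcdha, Pcdhb and Pcdhg arrays. By array these were 3 of 14 Pcdha, 9 of 22 Pcdhb and 3 of 21 Pcdhg genes, each with its own narrow peak. Of the other clustered genes 10 had a wider peak, among them Pcdha1 and Pcdhac2, 1 another narrow peak and 31 none, whereas 10 of the 12 protocadherins outside the arrays had a wider peak.

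The protocadherin peaks, named after their values were seen, ranged from weak to strong. Pcdha3 had −log10 p of 130 and 108 in DMSO and 116 and 92.1 in JNKi, with the TSS inside an 886 bp peak. Pcdhb14 had 56.0 and 34.7 in DMSO and 67.2 and 37.3 in JNKi, Pcdhga6 54.5 and 48.1 in DMSO and 41.4 and 44.4 in JNKi, and Pcdhb8 3.93 and 7.92 in DMSO and 9.91 and 5.88 in JNKi. Outside the arrays Pcdh8 had 14.7 and 21 in DMSO and 19.4 and 10.9 in JNKi. The narrow peaks of 8 of the 16 genes had an IDR of at most 0.05, as did those of 316 of all 657 genes. None of the 16 TSS regions had a second copy by the measure used, although the arrays are repeats of similar exons.

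Zinc-finger genes of the Zfp series, which includes KRAB repressors of transposable elements, were marked by a narrow peak alone at 20 of 394 (5.08%, 3.31 to 7.71). Of the 20, 16 had a peak with an IDR of at most 0.05. Of these genes 192 had a widest peak of 2000 to under 5000 bp and 117 one of 1000 to under 2000 bp. Zfp983 had −log10 p of 166 and 110 in DMSO and 171 and 148 in JNKi, and Zfp455 124 and 97.1 in DMSO and 89.7 and 75.3 in JNKi. Zfp972 had 129 and 125 in DMSO and 171 and 20.5 in JNKi, the last being far below the other 3 columns. Of 21 narrow peaks standing alone nearest to a gene with a Zfp symbol, 8 had a second copy of the TSS region, Zfp983 and Zfp972 among them.

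Clustered histone genes, whose transcripts end without a poly(A) tail and accumulate in S phase, were marked by a narrow peak alone at 5 of 67 (7.46%, 3.23 to 16.3). The 5 genes, Hist1h1t, Hist1h2ab, Hist1h3b, Hist1h4b and Hist1h4c, shared 3 narrow peaks, none with an IDR of at most 0.05. The interval counts these 5 genes as separate, so that the place of the class above all protein-coding genes rests on shared peaks. The peak at Hist1h3b had −log10 p of 8.44 and 23.5 in DMSO and 26.4 and 13.0 in JNKi, and a width of 964 bp in DMSO and 1917 bp in JNKi. None of the 3 nearest TSS regions had a second copy by the measure used, although histone genes of a type are similar in coding sequence.

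**Figure D4:**
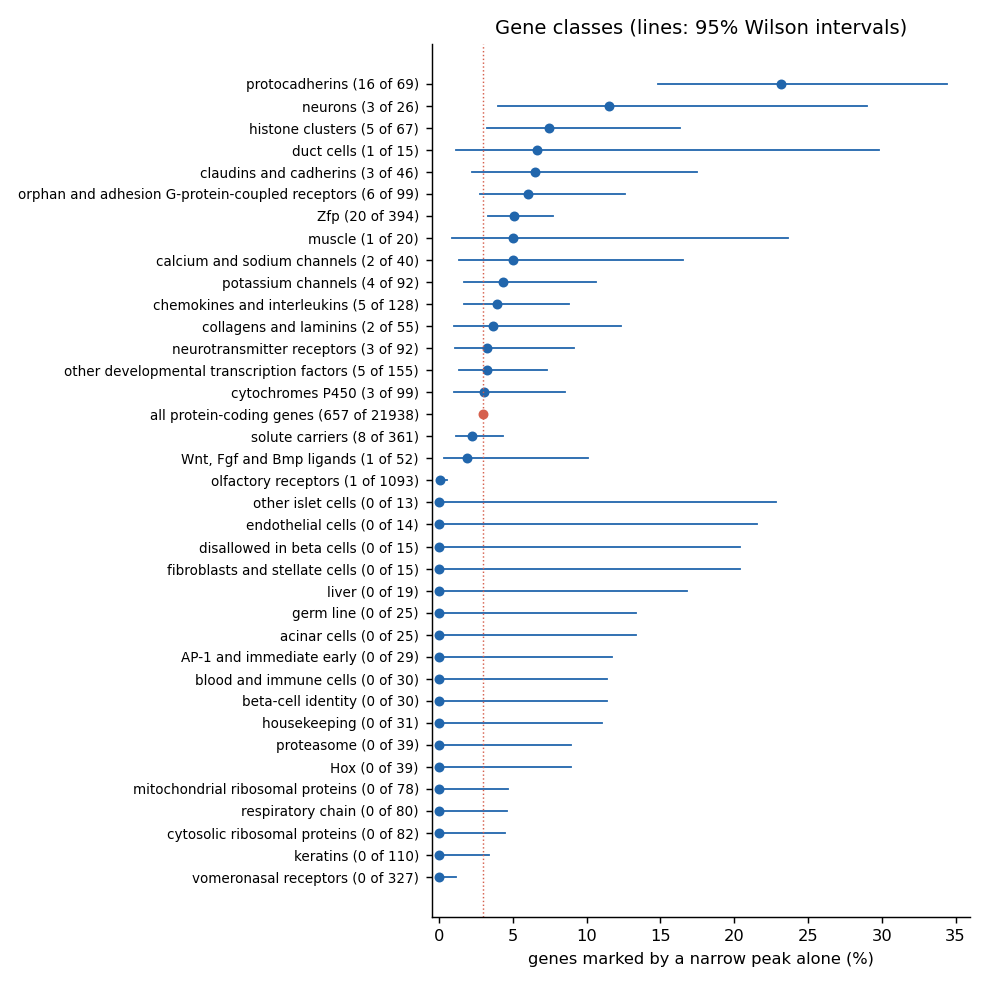
Share of the genes of each class that were marked by a narrow H3K4me3 peak alone in DMSO (x axis, %; points, with 95% Wilson intervals as lines), with counts beside the class names (y axis). The red point and dotted line are all protein-coding genes (2.99%), protocadherins stand highest at 23.2%, and ribosomal, respiratory chain and proteasome genes stand at 0.

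Of 26 neuron genes, 3 were marked by a narrow peak alone (11.5%, 4 to 29), among them Tph2, the neuronal tryptophan hydroxylase, and Slc17a7, a vesicular glutamate transporter. Tph2 had −log10 p of 12.7 and 4.15 in DMSO and 11.2 and 5.76 in JNKi. Slc17a7 had 2 narrow peaks, of 615 bp at the TSS with 7.70 and 7.82 in DMSO and of 867 bp upstream with 34.6 and 32.6. In the duct list Spp1, which encodes osteopontin, had 2 narrow peaks of 866 and 758 bp that 1 JNKi peak of 1947 bp covered. The Tph2 peak was weak in the second DMSO column, whereas the upstream Slc17a7 peak passed an IDR of 0.05.

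Of 155 other developmental transcription factor genes, 5 (3.23%, 1.39 to 7.33) were marked by a narrow peak alone, namely Tbx2, Lhx6, Pax4, Foxf1 and Foxe3, and 76 had no peak. Pax4, a factor of β cell development, had a peak of 595 bp centred 1928 bp upstream of the TSS with −log10 p of 7.07 and 13.3 in DMSO and 7.53 and 4.99 in JNKi. Of 52 Wnt, Fgf and Bmp ligand genes 1 was marked in this way, Wnt9b, with 42.8 and 47.4 in DMSO and 38.3 and 18.7 in JNKi. Both shares had intervals that held the 2.99% of all genes.

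Channels, receptors, transporters and secreted factors were counted in the same way over all genes of each class. The counts were 4 of 92 potassium channel genes, 2 of 40 calcium and sodium channel genes, 3 of 92 neurotransmitter receptor genes, 6 of 99 orphan and adhesion G-protein-coupled receptor genes, 8 of 361 solute carrier genes, 3 of 99 cytochrome P450 genes, 5 of 128 chemokine and interleukin genes, 2 of 55 collagen and laminin genes and 3 of 46 claudin and cadherin genes. Each of these 9 intervals held 2.99%, whereas among genes with any peak the shares were 14.3% (6.72 to 27.8) for the G-protein-coupled receptors, 16.7% (7.34 to 33.6) for chemokines and interleukins and 18.8% (6.59 to 43) for cytochromes P450, against 4.98%. Single members, named after their values were seen, were distinct in both lists. Kcnh4, a voltage-gated potassium channel, had −log10 p of 63.5 and 50.1 in DMSO and 70.6 and 67.2 in JNKi. Slc29a3, a nucleoside transporter, had 87.4 and 110 in DMSO and 113 and 79.5 in JNKi. Il20ra, a cytokine receptor subunit, had 46.7 and 27.6 in DMSO and 55.3 and 29.3 in JNKi. The TSS of each of these 3 genes lay inside the narrow peak and had no second copy.

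The JNKi list was read for the same peaks. The JNKi peak with the largest overlap had a median width of 752 bp, against 704 bp in DMSO, and was wider at 870, narrower at 616 and equal at 11 of the 1497. The median difference was 25 bp. The choice of peaks under 1000 bp in DMSO alone bears on this direction: with the lists swapped, the rule gave 1471 narrow JNKi peaks, of which 268 had a DMSO peak of 1000 bp or more, whereas 297 of the 1497 had such a JNKi peak. The −log10 p of the JNKi replicates had medians of 21.5 in the first and 15.2 in the second column, so that the 2 JNKi columns stood further apart than the DMSO columns. Widths of the single replicate columns were set side by side. The medians were 594 and 620 bp in DMSO and 698 and 598 bp in JNKi, and the columns of 1 treatment differed by a median of 96 bp in DMSO and 115 bp in JNKi. Both JNKi widths exceeded both DMSO widths at 409 of the 1497 peaks (27.3%, against 21.5% of shared promoter peaks of any width), both were smaller at 226 (15.1%, against 15%), and the columns overlapped at 862. Of the 409, 166 lay beside a wider peak (45.5% of 365) and 243 stood alone (21.5% of 1132), the latter share being that of all shared promoter peaks. With 2 columns per treatment no single width difference can pass an exact test, and since the rule used these widths none was tested.

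Narrow peaks under a wide JNKi peak were of both kinds. Of the 297 peaks with a JNKi peak of 1000 bp or more, 138 were among the 365 beside a wider peak and 159 among the 1132 standing alone. The JNKi peak covered another DMSO peak as well at 112 of the 365 and at 30 of the 1132. Across peaks, Spearman's rho between DMSO and JNKi widths was 0.643 for those standing alone and 0.227 for those beside a wider peak. Of the 657 genes marked by a narrow peak alone in DMSO, 560 also had only JNKi peaks under 1000 bp within 3 kb and 97 had a wider one.

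**Figure D5:**
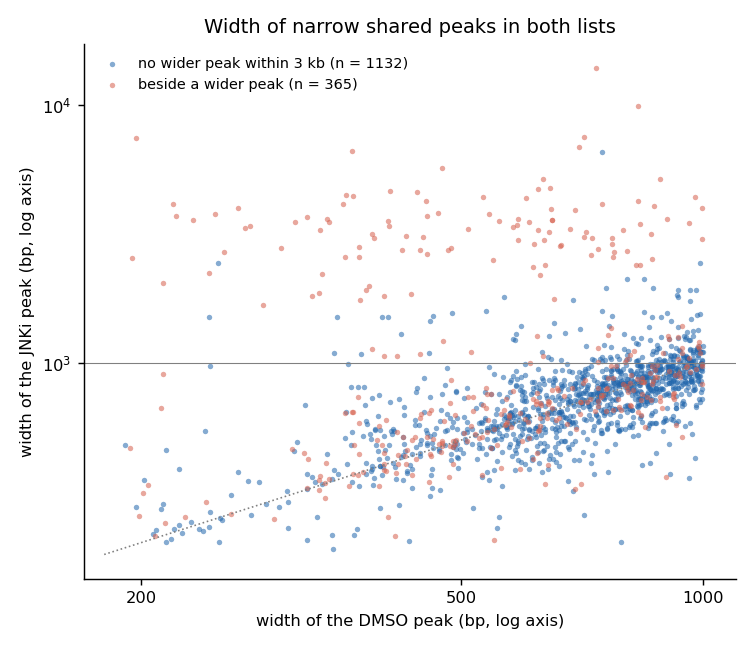
Width of the narrow peaks in the DMSO list (x axis, bp) against the width of the JNKi peak overlapping most (y axis, bp), both on log axes. Most peaks lie along the dotted line of equality, and of the 297 at or above the grey line at 1000 bp, those beside a wider DMSO peak (red) make up 100 of the 105 above 2000 bp.

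Under the same limit on symbols, the 5 peaks with the largest ratio of JNKi to DMSO width all lay beside a wider peak. At Pdx1, the homeobox gene required for pancreas and β cell identity, a narrow peak of 736 bp centred 2445 bp upstream of the TSS was separated by 203 bp from a peak of 12246 bp in DMSO, and both lay under 1 JNKi peak of 13850 bp. Its −log10 p was 11.8 and 6.24 in DMSO and 734 and 8.29 in JNKi. The widths at Napa, a SNAP protein of vesicle fusion, were 366 and 6612 bp, with 12.9 and 12.4 in DMSO and 579 and 19.8 in JNKi. The widths at Map6, a microtubule stabilizer, were 221 and 3715 bp and those at Vps26a, a retromer subunit, 232 and 3586 bp. At Pdx1, Napa and Map6 the JNKi value was high in the first replicate column and low in the second (303 and 7.52 at Map6), and the gaps to the neighbour in DMSO ran from 203 to 474 bp over the 4 genes named.

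Overlap with cJun peaks, called from other libraries, was rarer at narrow promoter peaks than at shared promoter peaks of any width. A DMSO cJun peak overlapped 85 narrow peaks (5.68%, 4.62 to 6.97), against 12% of shared promoter peaks of any width, and the wider classes had 7.5%, 13.6% and 35.3%. The interval met that of peaks of 1000 to under 2000 bp (6.68 to 8.41). Narrow peaks standing alone had 4.86% (3.75 to 6.27) and those beside a wider peak 8.22% (5.82 to 11.5). A JNKi cJun peak overlapped 26 (1.74%, 1.19 to 2.53), against 4.31% of shared promoter peaks of any width. Narrow shared peaks away from promoters, with a median width of 666 bp, had 10.7% (9.57 to 11.9) and 3.97% (3.29 to 4.78). A narrow peak offers fewer bases to overlap, and the part of width in these shares was not tested. Overlap was counted with the merged cJun peaks, and the replicate columns of the 2 cJun lists were not used. Their difference at narrow peaks was therefore not checked by replicate.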

How the data were processed

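CUT&RUN peak lists from Min6 cells were used as deposited. The authors trimmed reads (Trimmomatic), aligned them to GRCm38 with Bowtie2 2.4.2, filtered with SAMtools 1.16, called narrow peaks per replicate against IgG with MACS2 2.2.7.1 and paired the replicates of each group by IDR. The 20-column lists have no header, and their replicate columns carry no number. The deposited −log10 p of a merged peak equalled its weaker replicate in 100% of peaks, and its width spans both replicates. The lowest −log10 p was just above 3, so that weak peaks are included, although the study's methods name default calling. The deposited score, a scaled IDR, was not used separately from the deposited −log10 IDR column. The cJun lists served for overlap only, and reads, coverage and IgG libraries were not analysed here.

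Members, gene lists and alternatives were chosen with earlier results of these data known. The nearest of 77161 TSS was assigned to each midpoint, and ties went to protein-coding genes. Second copies were sought with minimap2 2.31. Genes named were, off chromosome 18 and among members whose nearest gene is protein-coding with a symbol that is no Gm number, Rik clone or accession, the 8 strongest and 5 narrowest peaks standing alone, the 5 strongest beside a wider peak, the 5 with the largest JNKi to DMSO width ratio, listed cell type genes standing alone, and 2 peaks on each side of the thresholds. Some genes that this rule names are not reported here. Others are said to be named after their values were seen, and the genes of the sequences and of the family lists belong to these. The symbols Amy2b, Tf, Ctgf and Cyr61 had no match in the annotation and were not counted, and 1 housekeeping symbol matched more than 1 gene. No test was run, since members were chosen on these lists and peaks are not replicates. The rule was tested on simulated peaks. Python 3.11.15, pandas 2.3.3, SciPy 1.17.1 and pysam 0.24.0 were used. Alternatives covered IDR, width, promoter distance, overlap, TSS set, annotated point, chromosomes, neighbour distance, gene assignment and CpG window.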

Additional observations from a re-analysis of the deposited data

How the results depend on the processing

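Of 62 values under alternative settings, 32 stayed within 1.5 times (counts) or within the 95% interval (shares and the median) of the value reported, and 30 did not. With an IDR of at most 0.05 in both lists there were 527 narrow peaks, 269 genes marked by a narrow peak alone, 18.6% beside a wider peak, 53.3% with the TSS inside and a median CpG ratio of 0.535. A width under 750 bp gave 859 peaks, 300 genes, 33.4% beside a wider peak and 35.3% with the TSS inside, and a width under 1500 bp gave 3012 peaks, 1750 genes, 14.1%, 63.6%, a protein-coding share of 73.4% and a CpG ratio of 0.564. A promoter distance of 1 kb gave 12.9% beside a wider peak, 67.8% with the TSS inside, 71.6% protein-coding and a CpG ratio of 0.531. Reciprocal overlap of 50% gave 18.3% beside a wider peak and 50.3% with the TSS inside. With TSS of protein-coding genes only, 29.6% lay beside a wider peak, 50.5% had the TSS inside and the CpG ratio was 0.572, while the protein-coding share is 100% by construction and is not compared. A wider peak sought within 5 kb gave 28.3%, all genes within 3 kb gave a protein-coding share of 62.2%, and 500 bases on either side of the TSS gave a CpG ratio of 0.48. Chosen after seeing the data, the width of the first replicate column alone gave 21.3% beside a wider peak and 51.3% with the TSS inside, and that of the second 50.3% with the TSS inside. Why each value moved was not tested, except that thresholds on IDR, width and distance change the peaks counted by construction. The summit in place of the midpoint, and chromosomes 1 to 19 and X, moved none of the 6 results past these limits.

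No paired analysis was possible because the replicates of a group are merged into 1 list and their columns carry no number. Leaving out a replicate was not run, since a list holds only peaks called in both. The depth reached is not given by the lists (30000000 paired-end reads per sample are stated in the labels), and peaks near a −log10 p of 3 limit what the lists can show of weak promoters.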
